A study of Mus musculus with 6 samples.

Results

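The imprinted Gnas locus of the mouse encodes 2 neighbouring microRNA (miRNA) hairpins, mir-296 and mir-298, and the levels of their mature arms were compared in pancreatic islets of mice fed the HFD or the NCD diet. The members were chosen by name as the 5p and 3p arms of both hairpins, 4 in all, and the 2 analysed here were mmu-miR-296-3p and mmu-miR-298-5p, out of 1011 miRNA rows. mmu-miR-296-5p and mmu-miR-298-3p were not analysed here beyond their sequences. Small RNA was sequenced from 3 HFD and 3 NCD libraries of primary islets, the endocrine clusters of the pancreas. The labels give the diets as HFD-fed and NCD-fed. The labels state no genotype, strain, age, length of feeding or pooling of mice, so p-values measure only how far these libraries scatter, which may be technical.

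Imprinted genes are expressed mainly from the copy inherited from 1 parent. At the Gnas locus several such transcripts overlap: Gnas itself encodes the stimulatory G-protein alpha subunit, which couples hormone receptors to cyclic AMP production, and Nespas is a paternally expressed antisense RNA that silences part of the locus. The mir-296 and mir-298 hairpins lie beyond the annotated end of Nespas on the same strand. A miRNA hairpin is cut into a 5p and a 3p arm, and the arm that is loaded into the silencing complex pairs with messenger RNAs mainly through its seed, bases 2 to 8. In mouse islet cell lines, miR-296-3p and miR-298-5p have been described as higher in an alpha-cell line than in a beta-cell line and as influencing how alpha cells survive inflammatory cytokines.

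The sequences of the arms are shown because the 4 seeds all differ. They are RefSeq sequences on GRCm38.p6, minus strand, printed 5′ to 3′ with the seed in capitals:
miR-296-5p: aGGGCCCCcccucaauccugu
miR-296-3p: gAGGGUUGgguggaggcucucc
miR-298-5p: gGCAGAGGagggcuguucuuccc
miR-298-3p: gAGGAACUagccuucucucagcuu

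The table's sequences for miR-296-3p and miR-298-5p were identical to those of RefSeq. No other row shared a seed with any of the 4 arms, contained one, differed from one by 1 base, or was the reverse complement of one over 18 bases or more, and each arm had 1 locus in RefSeq. No near-identical row was thus present among those analysed to share reads with a member. The seeds of miR-296-3p and miR-298-5p differed at 5 of 7 positions, and the longest run of bases the arms shared was 5. Both arms are rich in G and C, with 68.2% for miR-296-3p and 65.2% for miR-298-5p, against a median of 47.8% over the 406 miRNAs tested. Only 2.71% of those tested had at least the G and C share of miR-296-3p, and 5.42% that of miR-298-5p.

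The hairpins show where in the stem each measured arm lies, in capitals:
Mir296: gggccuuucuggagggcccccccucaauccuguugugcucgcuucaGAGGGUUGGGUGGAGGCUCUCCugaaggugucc
Mir298: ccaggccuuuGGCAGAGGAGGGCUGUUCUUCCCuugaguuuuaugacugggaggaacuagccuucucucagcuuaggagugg

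Mir296 spans chr2:174267047-174267125 and Mir298 spans chr2:174267504-174267585 (GRCm38, minus strand), with 378 bases between them. In GENCODE vM21 neither hairpin overlaps another annotated gene, exonic or intronic. The nearest end of Nespas lies 13.7 kb away at base 174281237, and that of Gnas, on the plus strand, 16.7 kb away at base 174284320. No other RefSeq miRNA hairpin lies within 10 kb. The measured arms come from opposite sides of their stems, miR-296-3p from bases 47 to 68 of its hairpin and miR-298-5p from bases 11 to 33. Folding with RNAfold placed 20 of 22 bases of miR-296-3p and 22 of 23 bases of miR-298-5p in pairs, with free energies of -43.2 and -42.7 kcal/mol for the hairpins, which are predictions and not measurements.

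Library totals ran from 9431818 to 11059628 counts in HFD-fed and from 7166712 to 11172255 counts in NCD-fed islets. Levels below are CPM (reads scaled to a common library size), on totals scaled by TMM factors, which were 0.84 to 0.995 in 5 libraries and 1.73 in NCD 3. The tissue label was checked on 19 islet endocrine-enriched miRNAs. Over all libraries miR-375-3p had the highest mean of these, while in the HFD libraries miR-148a-3p did (360197 against 334724 CPM). The 19 summed to 802025 to 1008060 CPM in HFD-fed and 459283 to 963145 CPM in NCD-fed islets. NCD 3 held the lowest sum. These sums are on TMM-scaled totals and are not shares of a library's reads. The factor of 1.73 lowers every level in NCD 3, and whether its low sum also reflects less endocrine miRNA was not tested. The diet comparisons of the Gnas-locus miRNAs and of their ratio are given with and without NCD 3. The lists of other miRNAs are given only with NCD 3 included. In these bulk samples fewer cells of a type and less RNA per cell cannot be told apart.

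Both Gnas-locus miRNAs were scarce. miR-296-3p was supported by 115 reads and miR-298-5p by 90 reads over all 6 libraries. Their mean levels of 2.03 and 1.39 CPM ranked 348 and 379 among the 406 tested miRNAs, whose median was 16.4 CPM. Ligation-based libraries favour some ends over others, so ranks between miRNAs are less firm than differences of 1 miRNA between libraries. miR-296-3p passed the filter on low counts through 5 libraries. miR-298-5p passed through 3 (HFD 2, HFD 3 and NCD 3), the fewest the filter accepts, and these come from both diets.

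miR-296-3p had 14, 33 and 25 reads in HFD replicates 1, 2 and 3, against 7, 18 and 18 reads in the NCD replicates. As levels these were 1.56, 4.16 and 2.27 CPM in HFD-fed islets, against 1.04, 1.84 and 1.28 CPM in NCD-fed islets. HFD 2 and HFD 3 lay above each NCD library, while HFD 1 lay among them, so the diets overlapped. HFD-fed islets averaged 2.67 ± 1.35 CPM and NCD-fed islets 1.39 ± 0.41 CPM (SD, n = 3 each). On the log2 scale the change was 0.88 ± 0.59 (SE), with a 95% interval from -0.39 to 2.15. The edgeR quasi-likelihood test gave an unadjusted p of 0.156 and an adjusted p of 0.582 over the 406 miRNAs, so miR-296-3p did not pass. Without HFD 2, its highest library, the log2 fold change was 0.41, and without NCD 3 it was 0.78.

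miR-298-5p had 3, 17 and 13 reads in HFD replicates 1, 2 and 3, against 6, 6 and 45 reads in the NCD replicates. Its levels were 0.334, 2.15 and 1.18 CPM in HFD-fed islets, against 0.89, 0.615 and 3.20 CPM in NCD-fed islets. On the authors' deposited TPM scale, which has no TMM factor, NCD 3 stood at 5.54 and the other libraries at 0.281 to 1.80. The highest library was NCD 3 and the lowest HFD 1, so the diets overlapped. HFD-fed islets averaged 1.22 ± 0.91 CPM and NCD-fed islets 1.57 ± 1.42 CPM (SD, n = 3 each). On the log2 scale the change was -0.58 ± 0.75 (SE), with a 95% interval from -2.20 to 1.05 (edgeR adjusted p = 0.794). Without NCD 3 it was 0.69 ± 0.88 (SE; edgeR adjusted p = 0.828), so its sign rested on that library. With library totals as the only scaling it was -1.03, against a median of -0.37 over all miRNAs under that scaling, where the median was 0.02 under TMM.

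**Figure D1:**
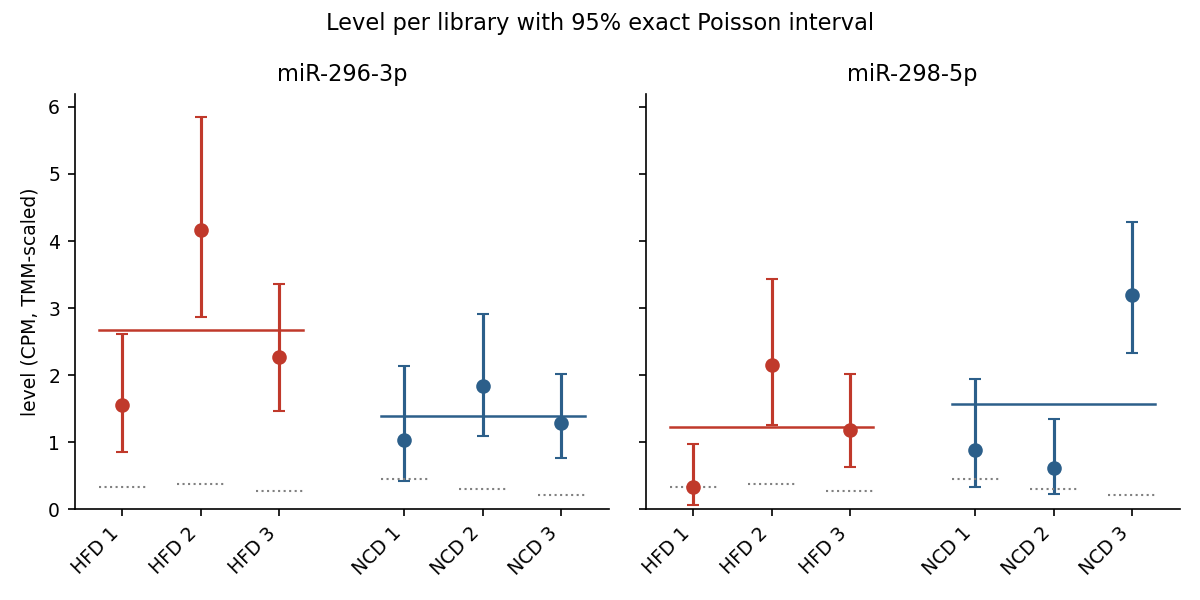
Level of miR-296-3p (left) and miR-298-5p (right) in each library, in TMM-scaled CPM, with points for libraries, vertical bars for the 95% exact Poisson interval of the count, horizontal lines for diet means and dotted lines for the level that a count of 0 allows. HFD 2 stands highest for miR-296-3p at 4.16 CPM and NCD 3 for miR-298-5p at 3.20 CPM.

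Neither member passed with edgeR (0 of 2), DESeq2 (0 of 2) or limma-voom (0 of 2), and neither had an unadjusted p under 0.05 with edgeR. Over all tested miRNAs 0.246% were called by edgeR, 0.743% of the 404 with an adjusted p were called by DESeq2, 10.1% had an unadjusted p under 0.05 and 15.3% had diets that did not overlap, which held for 0 of these 2. Each member's interval includes changes of more than 1 on the log2 scale, and a p that misses the threshold does not show equal levels. The median standard error of the log2 fold change was 0.59 over the 167 tested miRNAs under 10 CPM and 0.37 over the 239 at or above it.

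**Figure D2:**
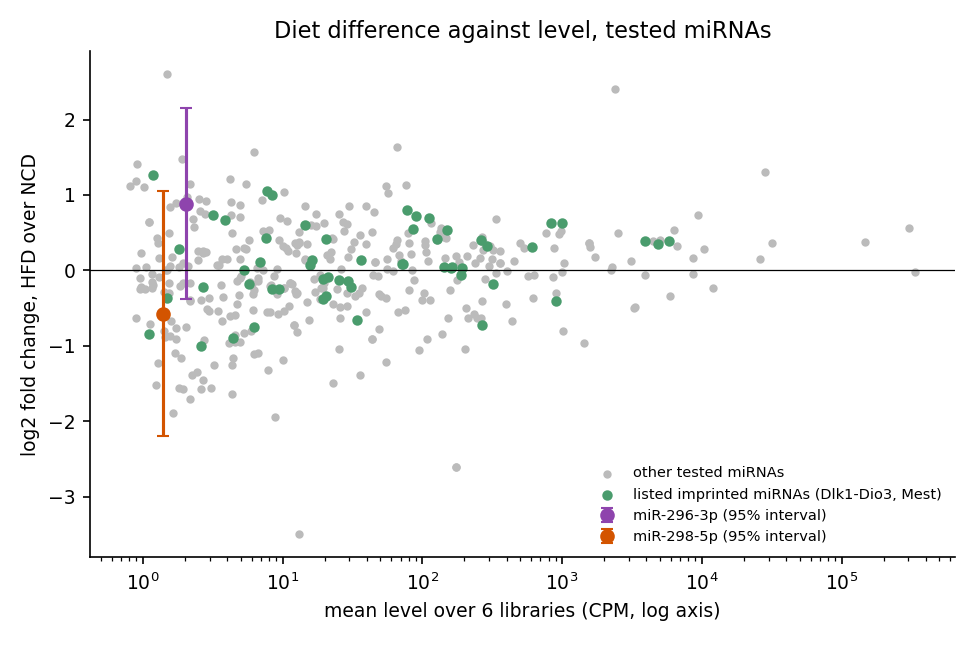
Log2 fold change (HFD over NCD) against the mean level over the 6 libraries (CPM, log axis) for all 406 tested miRNAs, with the Gnas-locus miRNAs and their 95% intervals in purple and orange and the listed miRNAs of other imprinted loci in green. Both members sit at the low end of the level axis, at 2.03 and 1.39 CPM, and both intervals cross 0.

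The spread between libraries was set against counting error alone. With no read at all, a level as high as 0.273 to 0.379 CPM could go unseen in the HFD libraries and 0.213 to 0.445 CPM in the NCD libraries, taken as 3 counts per library. Every library held reads of both members, and the 3 reads of miR-298-5p in HFD 1 stood at that limit. For miR-296-3p the coefficient of variation was 50.5% in HFD islets, where counting alone gives 20.3%, and 29.8% in NCD islets, where counting alone gives 27.8%. The NCD libraries of miR-296-3p thus varied by about as much as counting alone gives.

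For miR-298-5p the coefficient of variation was 74.3% in HFD-fed and 90.5% in NCD-fed islets, where counting alone gives 30.0% and 26.2%. Its 45 reads in NCD 3 had a 95% exact Poisson interval of 32.8 to 60.2 reads, and its 6 reads in NCD 1 and NCD 2 had one of 2.20 to 13.1 reads each. Such intervals hold counting error alone, because PCR copies cannot be told from separate molecules here. The difference of NCD 3 from the other NCD libraries was larger than counting error, and it was 5.20-fold from the lowest to the highest NCD library.

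The hairpins are neighbours, and the reads of their measured arms were compared within each library, where no scaling is needed. miR-298-5p had fewer reads than miR-296-3p in all 3 HFD libraries, with log2 ratios of -2.05, -0.94 and -0.92. In the NCD libraries the log2 ratios were -0.21, -1.51 and 1.30, and NCD 3 was the 1 library of the 6 in which miR-298-5p exceeded miR-296-3p. This log2 ratio averaged -1.30 ± 0.65 over HFD and -0.14 ± 1.40 over NCD libraries (SD, n = 3 each). The diets differed by -1.16, with p = 0.3 (exact permutation test, two-sided), and the smallest p this design allows is 0.1. In size the difference is less than the SD of the NCD libraries, which is a spread between libraries and not the error of the difference. Without NCD 3 the difference was -0.44. The log2 ratio thus ranged from -2.05 to 1.30 over the 6 libraries.

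Markers of other cells were read beside these values. The 4 acinar-enriched miRNAs, which mark the enzyme-secreting cells around the islets, summed to 20.2, 139 and 205 CPM in HFD replicates 1, 2 and 3, against 111, 173 and 418 CPM in the NCD replicates. Their lowest and highest libraries, HFD 1 and NCD 3, were also the lowest and highest for miR-298-5p, while the order of the 4 libraries between differed. Among the defining acinar markers, miR-217-5p was at 18.04 CPM in HFD 1, against 315 CPM in NCD 3, and miR-216a-5p and miR-216a-3p were at 0 reads in HFD 1. All 3 tested acinar miRNAs had negative log2 fold changes (HFD over NCD), with a median of -0.85, and none passed (edgeR, 0 with an unadjusted p under 0.05, 0 by DESeq2). Of all 406 tested miRNAs, 209 had positive log2 fold changes. Of the same 406, 0.246% were called by edgeR and 10.1% had an unadjusted p under 0.05 with edgeR. miR-296-3p did not follow the acinar order of libraries, being highest in HFD 2. The part of acinar RNA in the miR-298-5p values was not tested.

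**Figure D3:**
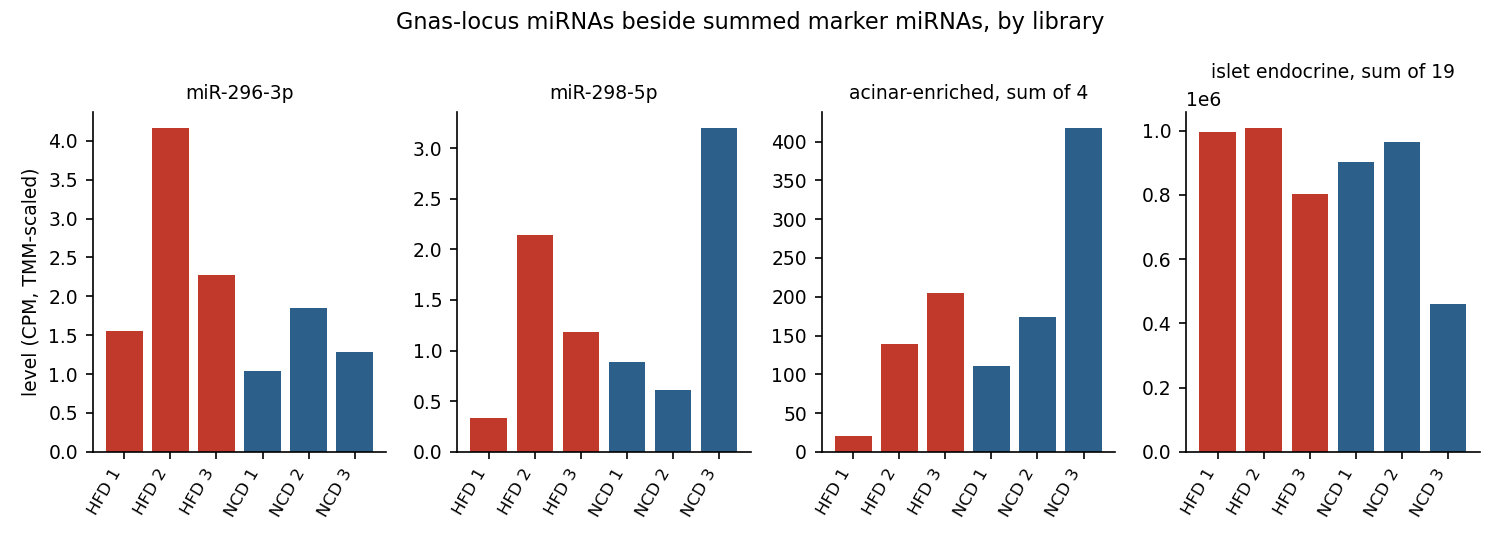
Bars give the level of miR-296-3p and miR-298-5p and the summed levels of 4 acinar-enriched and 19 islet endocrine-enriched miRNAs in each library (TMM-scaled CPM, linear axes that start at 0, HFD in red and NCD in blue). On this scale NCD 3 holds the most miR-298-5p (3.20 CPM) and acinar miRNA (418 CPM) and the least islet endocrine miRNA (459283 CPM). Its TMM factor of 1.73 lowers all of its bars, which are not shares of its reads.

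The 2 endothelial-enriched miRNAs summed to 299.8 to 434 CPM in HFD-fed and 346 to 748 CPM in NCD-fed islets. The 5 leukocyte-enriched miRNAs summed to 6.18 to 13.3 CPM in HFD-fed and 13.02 to 30.4 CPM in NCD-fed islets, the 4 erythroid ones to 47.8 to 155 and 39.8 to 143 CPM, and the 4 liver and muscle ones to 48.3 to 130.4 and 127 to 885 CPM. In none of these lists was NCD 3 the highest: NCD 1 was highest in the endothelial, leukocyte, and liver and muscle lists and HFD 2 in the erythroid one. Of their tested members 0 were called by edgeR, DESeq2 or limma-voom. All tested members of these lists had negative log2 fold changes, so that direction was not particular to the acinar miRNAs. The medians were -0.70 for endothelial, -0.82 for leukocyte, -0.22 for erythroid, and -2.61 for liver and muscle miRNAs. An unadjusted p under 0.05 with edgeR was found for 2, both among the 3 tested of the liver and muscle list. Over all tested miRNAs the share was 10.1%. The NCD libraries of that list were uneven, with a sum of 885 CPM in NCD 1, against 127 in NCD 2 and 131 in NCD 3. The 19 tested islet endocrine miRNAs had a median log2 fold change of 0.18, against 0.02 over all tested miRNAs, with 0 called. With library totals only these medians were -0.18 and -0.37. Of the 19, 2 had an unadjusted p under 0.05 with edgeR, a share near the 10.1% of all tested miRNAs.

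Among other imprinted loci, the Mest arms and most listed Dlk1-Dio3 arms were more abundant than the analysed Gnas-locus arms in the same libraries. The analysed Igf2 arm, miR-483-5p, was not. The other arms of the Gnas-locus and Igf2 hairpins were not analysed here, so the loci as wholes are not ranked. miR-335, hosted by the imprinted Mest gene, had 144 ± 41.9 CPM in HFD-fed and 140.3 ± 59.5 CPM in NCD-fed islets for its 3p arm, and 16.9 ± 3.03 and 15.6 ± 6.57 CPM for its 5p arm (SD, n = 3 each). miR-483-5p, hosted by Igf2, was scarcer than either Gnas-locus miRNA, with 0, 1 and 0 reads in the HFD and 0, 1 and 5 reads in the NCD replicates, and it was not tested. The imprinted Dlk1-Dio3 region on another chromosome carries a long array of maternally expressed miRNAs. It was read on a fixed list of 70 arms that does not cover the whole region. Of these, 68 were analysed and 53 passed the filter on low counts and were tested. The 53 had a median of 29.2 CPM, and 4 of them had a lower mean level than miR-296-3p. Both values leave out the listed arms that the filter removed as scarce.

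None of the tested miRNAs listed from other imprinted loci was called (edgeR, DESeq2 and limma-voom, 0 each). Both arms of miR-335 had log2 fold changes near 0, at 0.04 ± 0.39 for the 3p and 0.14 ± 0.42 for the 5p arm (SE). The listed Dlk1-Dio3 arms had a median of 0.08, against 0.02 over all tested miRNAs. With library totals only these medians were -0.34 and -0.37, and with RLE factors -0.02 and -0.07. A change of scaling shifts all miRNAs by about the same amount, so these shifts are not particular to the list. The most abundant were miR-127-3p at 6586 ± 1907 CPM in HFD-fed and 5052 ± 649 CPM in NCD-fed islets, miR-541-5p at 5458 ± 711 and 4269 ± 2056 CPM, miR-379-5p at 4420 ± 709 and 3384 ± 1139 CPM, and miR-434-5p at 1210.4 ± 166 and 787 ± 76.3 CPM. Of the 53 listed arms, 4 had an unadjusted p under 0.05 with edgeR, which is no larger a share than the 10.1% of all tested miRNAs. The log2 fold changes of miR-296-3p and miR-298-5p, 0.88 and -0.58, lay within the range of the 53 tested arms, -1.002 to 1.26. The ends of that range came from arms at mean levels of 2.62 and 1.19 CPM, about as scarce as the members. Lying within it thus does not show likeness to the list.

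No miRNA was named for a pattern like that of a member, because neither member reached the mean of 10 CPM set for such a comparison. The direction of miR-296-3p was positive under each of 19 processing settings tried, from 0.34 to 1.11 on the log2 scale, and it did not pass under any of them. That of miR-298-5p was negative under 18 of 19, the exception being the removal of NCD 3.

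**Figure D4:**
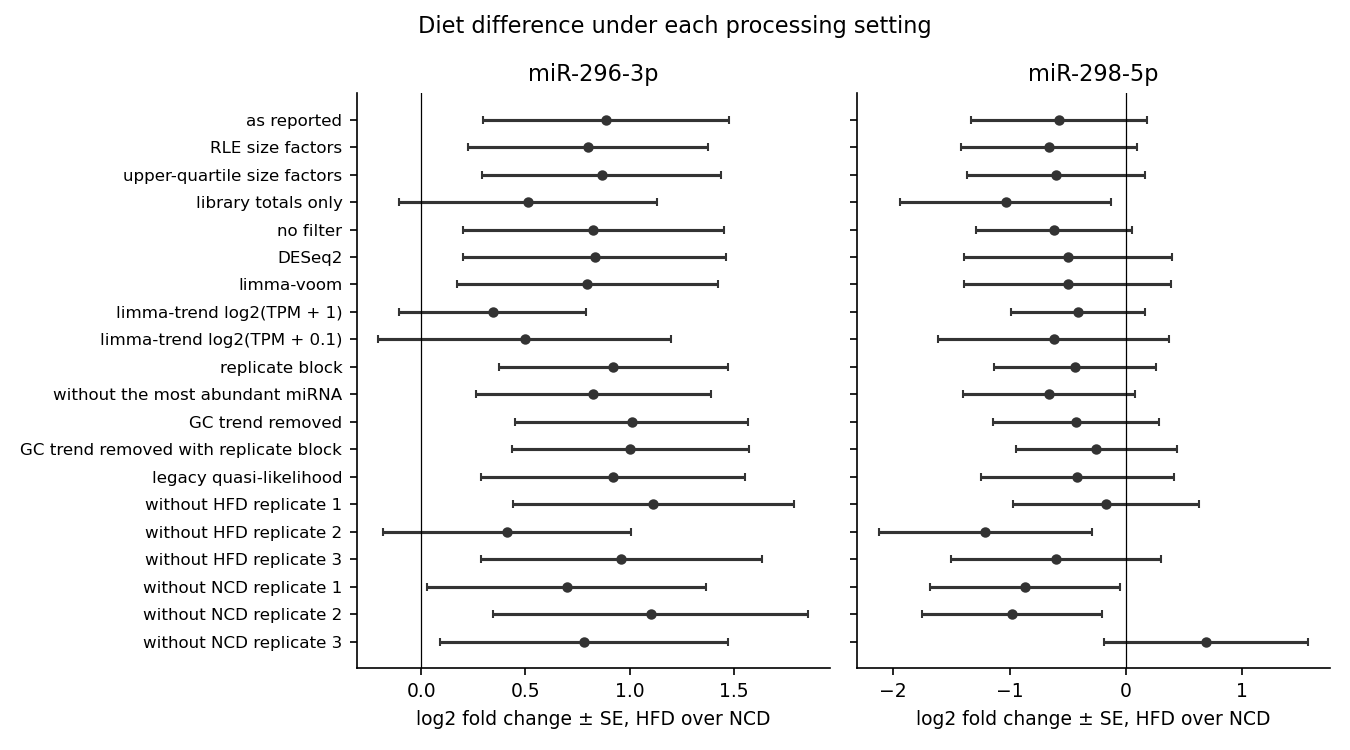
Log2 fold change (HFD over NCD) of each member with its standard error, as reported and under each processing setting, from top to bottom. miR-296-3p stays above 0 throughout, lowest at 0.34 with log2(TPM + 1), and miR-298-5p lies below 0 except without NCD replicate 3, where it is 0.69.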

How the data were processed

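Islet RNA was isolated on RNeasy columns and libraries were made with a NEBNext small RNA kit, per the labels' protocols. Such columns can lose short RNA. For the aligner, counter, genome build and miRNA annotation: not given in the sources used here. Per the file headers, the deposited values are raw read counts of mature miRNAs. Of the 1011 rows 53 are predicted miRNAs, and some of these are among the 406 tested. Some tested rows also carry identical values, such as miR-122-5p and miR-122b-3p at a mean of 174 CPM. Shares over all tested miRNAs count such rows separately. The authors' deposited TPM values equal CPM on library totals to within a relative difference of 4.61e-09.

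Diets were compared by edgeR 4.0.16 under R 4.3.3 (filterByExpr, minimum count 10; TMM; quasi-likelihood without the legacy setting; no term but diet), adjusted by Benjamini-Hochberg over 406 miRNAs with a threshold of 0.05. Standard errors come from the log2 fold change and its F. The ratio of hairpins used a prior count of 0.5. limma 3.58.1 and DESeq2 1.42.0 were alternatives, and folding used RNAfold 2.7.2. Steps were tested on simulated data. Chi-square per degree of freedom between libraries of 1 diet was 471 to 2333, beyond sampling noise, and each library was counted once.

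Members, lists, tests and the naming rule (the members, miRNAs alike in pattern at a mean of at least 10 CPM or in sequence, and the 4 most abundant of each list of imprinted or islet miRNAs) were chosen with earlier results of these data known. Lists covered imprinted loci (6 arms of miR-335, miR-483 and miR-675, of which miR-335-5p, miR-335-3p and miR-483-5p were analysed, and 70 arms of Dlk1-Dio3, not the whole region), islet endocrine, acinar, endothelial, leukocyte, erythroid, and liver and muscle miRNAs. The balance of arms within a hairpin was not analysed here, since 1 arm of each was.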

Additional observations from a re-analysis of the deposited data

How the results depend on the processing

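The number of called miRNAs, 1 as reported, changed to 8 when no filter was applied, to 3 under DESeq2, and to 0 when scaled by library totals only or fitted by limma-trend (0 with log2(TPM + 1), 0 with log2(TPM + 0.1)). Leaving out single libraries gave 0 to 4 calls, with 0 without NCD 1, 4 without NCD 2 and 3 without NCD 3, and the cause was not tested. Neither Gnas-locus miRNA passed under any setting in which it was fitted. Single libraries left out gave log2 fold changes of 0.41 to 1.11 for miR-296-3p and of -1.21 to 0.69 for miR-298-5p, which reversed to 0.69 without NCD 3; for that reversal too the cause was not tested. Over all 19 settings the adjusted p was 0.399 to 0.886 for miR-296-3p and 0.554 to 0.985 for miR-298-5p. Of these, edgeR's legacy setting was chosen after seeing the data. The diet difference in the log2 ratio of miR-298-5p to miR-296-3p was -1.85 to -0.44 with 1 library left out. A filter at a mean of 100 counts removed both members. Taking the more abundant arm of each hairpin was not a separate setting, since 1 arm of each was analysed.

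Same-numbered HFD and NCD libraries had correlated deviations of 0.138, -0.244 and 0.314 (numbers 1, 2 and 3, across miRNAs). HFD 1 correlated best with NCD 2 (0.245), HFD 2 with NCD 1 (0.277) and HFD 3 with NCD 3 (0.314). The best matches were thus not all of the same number, and no pairing by number was assumed. With the replicate number as a block the log2 fold change was 0.92 for miR-296-3p and -0.44 for miR-298-5p (1.003 and -0.25 with a GC trend also removed), and the number of called miRNAs was 1. Depth limits both comparisons: miR-296-3p rested on 72 reads in HFD-fed and 43 in NCD-fed islets, and miR-298-5p on 33 and 57.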
